A study of Homo sapiens with 6 samples.

Results

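The serine/arginine-rich splicing factors (SRSF genes) and the heterogeneous nuclear ribonucleoproteins (HNRNP genes) were examined in A2780 cells, an established ovarian cancer line, after treatment with TH588. The genes were chosen by name: every protein-coding symbol made of SRSF and digits, and every protein-coding symbol starting with HNRNP. That gave 39 of 58336 rows of the count table, 12 SRSF and 27 HNRNP genes, of which 34 (12 SRSF and 22 HNRNP) had enough counts to be tested. TH588 is a first-generation inhibitor of the nucleotide-pool enzyme MTH1 that also stalls cells in mitosis. One group of 3 cultures received 6 µM TH588 for 48 h and the control group of 3 received the DMSO vehicle, each in independent experiments lettered A, B and C. Both groups were grown in RPMI medium with 10% heat-inactivated serum, insulin, penicillin G, streptomycin and glutamine, and RNA was sequenced from polyA-selected libraries. A2780 is a single line, so the p-values below measure the spread between these 6 cultures and not between tumors.

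SR proteins join an RNA recognition motif to a tail of arginine and serine repeats, bind exonic enhancers and help the early spliceosome choose nearby splice sites. The hnRNP proteins coat the nascent transcript, and many of them silence exons or splice sites that SR proteins activate, so the balance between the families shapes exon inclusion. Many genes of both families limit their own expression through poison exons or retained introns whose transcripts are degraded by nonsense-mediated decay. A count per gene adds up all of these forms, and in the GENCODE annotation SRSF7 has 6 and HNRNPA2B1 35 transcripts marked as decay targets.

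Libraries held 77634048 to 99074175 counts, except the TH588 culture A with 28537837. SNORD3A, a small nucleolar RNA, took 7.68 to 10.59% of counts in DMSO, 11.2 and 12.95% in TH588 cultures B and C, and 21.94% in TH588 culture A. A floor of 3 counts corresponded to a normalized count of 0.112 CPM (counts scaled to a common library total) in that culture and to 0.0276 to 0.0365 CPM in the others. Values below are normalized counts, which are CPM after TMM scaling between libraries. Of the ovarian and epithelial markers listed, VIM was high (3339 to 3745 CPM in DMSO and 3329 to 4048 CPM with TH588), and PAX8, WT1, CDH1, MUC16 and KRT8 were at or near 0 in all libraries (at most 0.262 CPM). EPCAM, an epithelial surface marker, was at 0.548, 0.497 and 0.886 CPM in DMSO and 4.33, 4.96 and 4.91 CPM with TH588 (log2 fold change 2.87 ± 0.22, edgeR adjusted p = 8.23e-07), and KRT18, an epithelial keratin, at 3.86, 3.14 and 3.67 CPM and 6.13, 6.995 and 6.51 CPM (log2 fold change 0.88 ± 0.13, edgeR adjusted p = 1.70e-04). CDH2, a mesenchymal cadherin, fell from 14.8, 13.5 and 14.9 CPM to 12.4, 10.6 and 10.4 CPM (log2 fold change -0.37 ± 0.11, edgeR adjusted p = 0.0146), a call that was lost with library-size scaling and without DMSO culture A or C or TH588 culture C. Among the 8 immune, fibroblast and endothelial markers, none of the 3 tested passed, PTPRC, CD3E, CD68, PECAM1 and CDH5 were at or near 0, and the sum of all 8 was 11.2 to 12.4 CPM in DMSO and 10.3 to 11.8 CPM with TH588. Because these are bulk cultures, less RNA per cell and fewer cells of some kind cannot be told apart.

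Before the values, 4 promoter windows are shown because the genes they precede span the responses: HNRNPAB, the member with the largest fall, SRSF3 and SRSF6, whose counts fell, and HNRNPH2, which did not pass the test. Each is the 250 bases before the RefSeq transcription start on GRCh38.p14, written 5′ to 3′ on the gene's strand, with capitals marking the CCAAT box (CCAAT), the GC box (GGGCGG) and the cell cycle homology region (TTTGAA), each searched on both strands.
HNRNPAB: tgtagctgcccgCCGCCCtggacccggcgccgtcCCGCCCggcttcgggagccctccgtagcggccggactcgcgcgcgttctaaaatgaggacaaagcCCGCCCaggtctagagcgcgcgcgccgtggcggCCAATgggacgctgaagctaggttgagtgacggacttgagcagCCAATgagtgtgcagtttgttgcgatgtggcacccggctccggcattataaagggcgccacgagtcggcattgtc
SRSF3: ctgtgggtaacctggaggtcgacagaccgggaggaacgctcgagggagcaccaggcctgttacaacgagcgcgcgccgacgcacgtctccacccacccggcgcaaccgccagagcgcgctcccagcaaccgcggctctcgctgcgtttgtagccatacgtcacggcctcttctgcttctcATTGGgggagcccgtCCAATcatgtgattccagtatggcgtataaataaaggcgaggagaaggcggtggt
SRSF6: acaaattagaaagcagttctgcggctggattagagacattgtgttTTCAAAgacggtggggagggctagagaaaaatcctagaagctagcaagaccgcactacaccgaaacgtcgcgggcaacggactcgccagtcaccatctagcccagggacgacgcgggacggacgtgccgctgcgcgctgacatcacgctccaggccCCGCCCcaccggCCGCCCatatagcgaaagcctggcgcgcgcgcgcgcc
HNRNPH2: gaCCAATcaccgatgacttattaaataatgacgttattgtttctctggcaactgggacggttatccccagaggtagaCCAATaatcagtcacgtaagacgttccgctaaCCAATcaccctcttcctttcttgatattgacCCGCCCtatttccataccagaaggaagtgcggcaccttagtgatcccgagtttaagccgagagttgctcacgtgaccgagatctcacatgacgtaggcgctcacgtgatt
They lie at chr5:178204283-178204532, plus strand (HNRNPAB), chr6:36594112-36594361, plus strand (SRSF3), chr20:43457646-43457895, plus strand (SRSF6) and chrX:101407972-101408221, plus strand (HNRNPH2). The HNRNPAB window holds 2 CCAAT boxes and 3 GC boxes, the SRSF3 window 2 CCAAT boxes, the SRSF6 window 1 cell cycle homology region and 2 GC boxes, and the HNRNPH2 window 3 CCAAT boxes and 1 GC box. RefSeq windows were found for 35 of the 39 genes, 49 windows in all, some genes having several starts. A CCAAT box was present in at least 1 window of 19 of 24 HNRNP genes (79.2%) and of 2 of 11 SRSF genes (18.2%). It was present for 41.3% of the 11124 tested genes with a window and in 32% of all 35116 windows. The HNRNP genes counted here include HNRNPCL1, HNRNPCL2, HNRNPCL4 and HNRNPUL2-BSCL2, which were not tested. All of these but HNRNPCL4 have a CCAAT box, and the HNRNPUL2-BSCL2 window overlaps that of HNRNPUL2. Within the members, a CCAAT box was present for 12 of the 22 that fell and had a window (54.5%) and for 6 of the 9 that were tested and did not pass (66.7%). GC boxes were present for 18 HNRNP (75.0%) and 4 SRSF genes (36.4%), against 72.7% of tested genes. The cell cycle homology region was present for 2 HNRNP genes (HNRNPUL1 and the untested HNRNPCL4, 8.3%) and 2 SRSF genes (SRSF6 and SRSF11, 18.2%), against 12.4%. An E2F site (TTTGGCGC or TTTCCCGC) was found for 2 HNRNP genes (8.3%) and 1 SRSF gene (9.1%), against 3.74%, and a cAMP response element (TGACGTCA) for none, against 3.35%. The homology region and the E2F site were each present for 1 of the 22 members that fell (4.5%) and 2 of the 9 that did not pass (22.2%). These matches describe letters in 250 bases and say nothing of binding.

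After TH588, 8 of the 12 SRSF genes and 15 of the 22 tested HNRNP genes fell, and no member rose. Across all 15844 genes tested, 25.3% were lower and 24.2% higher at an adjusted p under 0.05 by edgeR, the median change was 0.02 on the log2 scale, and 49.6% passed in either direction, whereas 67.6% of the 34 tested members were lower. The median log2 fold change was -0.47 over the SRSF genes and -0.62 over the HNRNP genes. The share of lower genes was larger among abundant genes: of the 9762 whose log2 CPM averaged 2 or more, 36.5% were lower and 24.3% higher. In 27 of the 34 tested members the 3 TH588 values all lay below the 3 DMSO values, against 29% of all genes tested and 40.3% of the abundant ones. In SRSF5 alone they all lay above, which held for 28.7% of all genes and 26.9% of the abundant ones. The normalized counts of all 12 SRSF genes summed to 1654 ± 48.6 CPM in DMSO and 1327 ± 39.9 CPM with TH588 (mean ± SD, n = 3), 19.8% less. Those of the 27 HNRNP genes summed to 20212 ± 131 CPM and 14552 ± 236 CPM, 28.0% less. With scaling by library size alone, the median of all genes moved to 0.13 and the split of calls from 48.9% to 60.4% higher. Of all genes tested, 17.6% were then lower, and the medians were -0.37 for SRSF and -0.52 for HNRNP genes. At that scaling 8 SRSF and 14 HNRNP genes fell, and 1, SRSF5, rose. Without TH588 culture A, the shallow library, 8 SRSF and 16 HNRNP genes fell and SRSF5 rose, while 24.7% of all genes tested were lower.

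**Figure D1:**
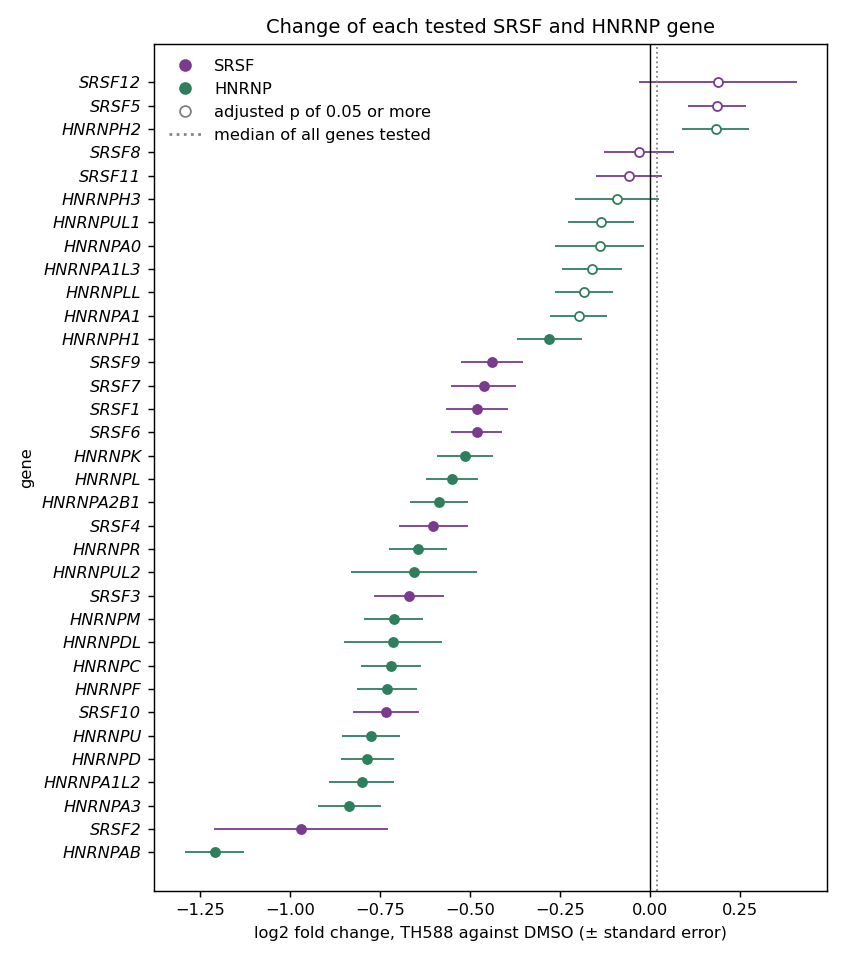
Log2 fold change of TH588 against DMSO (horizontal axis, ± standard error) for each of the 34 tested SRSF and HNRNP genes (vertical axis). Filled points had an adjusted p under 0.05 by edgeR, open points did not, and the dotted line is the median of all genes tested, 0.02. All 23 filled points lie left of 0, from HNRNPH1 at -0.28 to HNRNPAB at -1.21.

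Per length, in DMSO, SRSF5 had the highest value of the SRSF genes as counted, 139 ± 11.5 TPM (counts divided by exon length and scaled to a common total, mean ± SD, n = 3), followed by SRSF1 at 116 ± 1.47, SRSF7 at 113 ± 10.8, SRSF3 at 99.7 ± 0.991 and SRSF6 at 94.6 ± 10.8 TPM. SRSF1 and SRSF7 were not ordered beyond their spread, nor were SRSF3 and SRSF6. SRSF12 was lowest at 1.11 ± 0.299 TPM. The full exon length was used also where exons are shared with other rows, so the ranks of such genes are uncertain. This holds for 96.1% of the coding bases of SRSF2 (2.78 ± 0.0496 TPM). It also holds for 46.2% of the exon bases of SRSF9 and 23.1% of those of SRSF1. SNORD3A took 29.9 to 34.5% of TPM in DMSO and 38.6 to 55.3% with TH588, so TPM was not compared between groups.

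Among the SR proteins with an additional RRM-like domain, SRSF1, the founding member and a proto-oncogene, had normalized counts of 145, 175 and 167 CPM in DMSO cultures A, B and C and 114, 121 and 115 CPM in TH588 cultures A, B and C. The groups did not overlap, and SRSF1 was 28.4% lower (log2 fold change -0.48 ± 0.09, edgeR adjusted p = 5.91e-04). SRSF4 stood at 119, 100.3 and 107 CPM in DMSO and 66.7, 79.7 and 68.3 CPM after TH588, 34.2% lower (log2 fold change -0.60 ± 0.09, edgeR adjusted p = 2.17e-04). SRSF6, its closest relative here, went from 181, 178 and 184 CPM to 129, 128 and 132 CPM, with the TH588 cultures close together and below every control (log2 fold change -0.48 ± 0.07, edgeR adjusted p = 1.44e-04). SRSF9 was measured at 87.1, 82.7 and 87.1 CPM and 65.8, 67.2 and 56.5 CPM (log2 fold change -0.44 ± 0.09, edgeR adjusted p = 0.00105), with no overlap. SRSF5 went the other way without passing the test: 299.9, 314 and 317 CPM in DMSO against 329, 348 and 381 CPM with TH588 (log2 fold change 0.19 ± 0.08, edgeR adjusted p = 0.0753). Every TH588 value of SRSF5 was above every DMSO value, and it passed the test without TH588 culture A (log2 fold change 0.24), with library-size scaling (0.29) and where at least 10 counts in every library were required (0.21). The part of SRSF5 in the summed SRSF counts was 18.8% in DMSO and 26.6% with TH588.

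Among the SR proteins with a single RRM, SRSF3, the smallest and also an mRNA export adaptor, had 264, 328 and 302 CPM in DMSO and 179, 178 and 205 CPM with TH588. All TH588 cultures were below all controls, 37.2% lower (log2 fold change -0.67 ± 0.10, edgeR adjusted p = 1.13e-04). SRSF7, which carries a zinc knuckle beside its RRM, stood at 187, 192 and 192 CPM and 156, 133 and 125 CPM, and its highest TH588 value was in culture A (log2 fold change -0.46 ± 0.09, edgeR adjusted p = 0.00106). SRSF2, also known as SC35, had the largest fitted fall of the SRSF genes but very low counts: 3.09, 3.79 and 3.67 CPM against 0.971, 1.82 and 2.36 CPM (log2 fold change -0.97 ± 0.24, edgeR adjusted p = 0.00531). In the annotation, 96.1% of the coding bases of SRSF2 (chr17:76734115-76737374, minus strand) lie in exons of other rows, chiefly MFSD11. Of all its exon bases 36.7% do so, and 3.28% on the same strand. How reads in shared exons were counted is not given in the sources used here, and the part of this overlap in the low level was not tested. Smaller shares of coding bases lie in other rows for SRSF1 (26.3%), SRSF9 (18.8%, in GATC) and HNRNPL (27.7%). Of all exon bases, these shares were 23.1% for SRSF1, 46.2% for SRSF9 and 8.23% for HNRNPL. With any 1 library left out, the log2 fold change of SRSF2 ranged from -1.23 to -0.75.

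Of the remaining SRSF genes, SRSF10, which represses splicing when dephosphorylated in mitosis or heat shock, fell most among those with over 10 CPM: 103, 93.1 and 104 CPM in DMSO and 67.6, 56.8 and 56.4 CPM with TH588, 39.8% lower (log2 fold change -0.73 ± 0.09, edgeR adjusted p = 3.67e-05). Its relative SRSF12 had only 1.61, 1.93 and 2.84 CPM and 2.47, 2.18 and 2.65 CPM, and the groups overlapped (log2 fold change 0.19 ± 0.22, edgeR adjusted p = 0.508). SRSF11 stood at 189, 192 and 199 CPM and 161, 191 and 204 CPM (log2 fold change -0.06 ± 0.09, edgeR adjusted p = 0.632). SRSF8, an expressed retrogene copy of SRSF2, had 17.998, 19.6 and 18.1 CPM and 17.0, 18.1 and 19.3 CPM, overlapping between the groups (log2 fold change -0.03 ± 0.10, edgeR adjusted p = 0.816). The sign of the SRSF8 and SRSF11 values turned with library-size scaling.

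**Figure D2:**
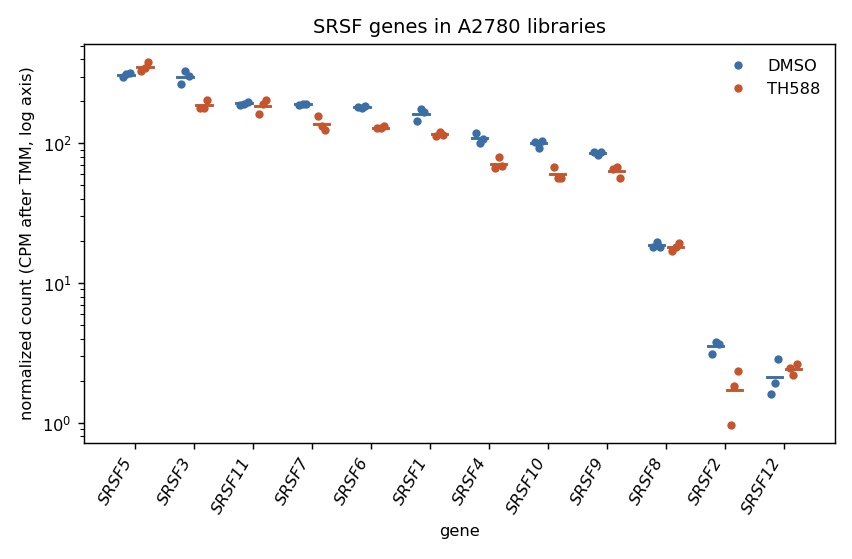
Normalized count (CPM after TMM, log axis) of the 12 SRSF genes in each library, with 3 DMSO and 3 TH588 points and a bar at each group mean. SRSF3, SRSF7, SRSF6, SRSF1, SRSF4, SRSF10, SRSF9 and SRSF2 have all TH588 points below all DMSO points, SRSF5 has them above, and SRSF11, SRSF8 and SRSF12 overlap.

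HNRNPA1, a splicing repressor that often opposes SRSF1, was the most abundant member per length in DMSO, at 2959 ± 223 TPM, followed by HNRNPC at 806 ± 90.3, HNRNPA2B1 at 708 ± 82.8, HNRNPA3 at 444 ± 32.0 and HNRNPK at 421 ± 33.9 TPM. This order depends on the annotated length, which includes exons of noncoding forms. HNRNPU, at 2146 CPM in DMSO, came to 229 ± 34.4 TPM over 22512 bases. Of these bases 56.4% lie outside exons of coding transcripts, against 2.67% for HNRNPA3. HNRNPA1 did not pass the test: its normalized counts were 6080.5, 6555 and 6249.9 CPM in DMSO and 5266, 5409.7 and 5776 CPM with TH588 (log2 fold change -0.20 ± 0.08, edgeR adjusted p = 0.0544). The groups did not overlap, and HNRNPA1 did pass with DESeq2 (adjusted p = 0.0382) and limma-voom (adjusted p = 0.0249). It made up 31.1% of the summed HNRNP counts in DMSO and 37.7% with TH588. Its copies HNRNPA1L2 and HNRNPA1L3 share sequence with it, so their counts are uncertain. HNRNPA1L2 stood at 26.7, 28.3 and 29.5 CPM and 15.9, 15.7 and 16.8 CPM and fell (log2 fold change -0.80 ± 0.09, edgeR adjusted p = 1.59e-05), while HNRNPA1L3 stood at 52.9, 61.7 and 57.5 CPM and 52.1, 52.4 and 49.5 CPM (log2 fold change -0.16 ± 0.08, edgeR adjusted p = 0.127).

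Of the other A/B proteins, HNRNPA2B1 and HNRNPA3 fell and HNRNPA0 did not pass. HNRNPA2B1, which packages nascent RNA with HNRNPA1, was measured at 2239, 2206 and 2225 CPM in DMSO and 1598, 1413 and 1429 CPM with TH588, 33.4% lower (log2 fold change -0.59 ± 0.08, edgeR adjusted p = 6.99e-05). HNRNPA3 went from 1077, 1193 and 1089.5 CPM to 636, 571 and 675 CPM, 43.98% lower (log2 fold change -0.84 ± 0.09, edgeR adjusted p = 8.78e-06). HNRNPA0, an intronless gene whose protein binds AU-rich elements, had 84.8, 79.4 and 77.6 CPM and 56.9, 85.9 and 76.0 CPM. Its lowest value was in TH588 culture A, the others overlapped, and it did not pass (log2 fold change -0.14 ± 0.12, edgeR adjusted p = 0.377), the value without culture A being 0.02.

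HNRNPAB, which binds RNA and CArG-box DNA, had the largest fall of all members. It lies at chr5:178204507-178211163 on the plus strand of GRCh38, and its first 26 bases in the count table lie in the window with 2 CCAAT boxes printed above. Its normalized counts were 302, 324 and 291 CPM in DMSO and 123, 134 and 139.6 CPM with TH588, so that every treated culture was below every control (log2 fold change -1.21 ± 0.08, edgeR adjusted p = 3.57e-07). Leaving out any 1 library moved the log2 fold change only between -1.23 and -1.15. HNRNPD (AUF1), which binds AU-rich elements and controls mRNA decay, stood at 495, 479 and 480.0 CPM and 282, 288 and 273 CPM (log2 fold change -0.79 ± 0.07, edgeR adjusted p = 3.34e-06). Its relative HNRNPDL had 494, 478 and 515 CPM in DMSO and 387, 259 and 260.4 CPM with TH588. TH588 culture A was well above B and C, and the groups still did not overlap (log2 fold change -0.71 ± 0.14, edgeR adjusted p = 8.53e-04), with -0.92 when culture A was left out.

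HNRNPC, which binds uridine tracts as a tetramer and keeps cryptic exons out of mRNA, stood at 2447, 2419 and 2497 CPM in DMSO and 1619.9, 1475 and 1376 CPM with TH588, 39.3% lower (log2 fold change -0.72 ± 0.08, edgeR adjusted p = 1.92e-05). The 4 HNRNPC-like genes HNRNPCL1, HNRNPCL2, HNRNPCL3 and HNRNPCL4 had no counts in DMSO, and HNRNPCL1 alone had a value in 1 TH588 culture (0.00919 CPM, below the floor). They could not be tested.

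The F/H group, which binds guanine tracts, was split. HNRNPF went from 342, 318 and 343 CPM to 214, 206 and 184 CPM and was 39.8% lower (log2 fold change -0.73 ± 0.08, edgeR adjusted p = 1.71e-05). HNRNPH1 had 1412, 1306 and 1366 CPM in DMSO and 1255, 1084 and 1023 CPM with TH588, the smallest fall that passed (log2 fold change -0.28 ± 0.09, edgeR adjusted p = 0.0214). That call was lost with library-size scaling (adjusted p = 0.102) and without any 1 of DMSO cultures A and C or TH588 cultures B and C. HNRNPH2 stood at 29.3, 33.8 and 33.2 CPM and 36.5, 33.4 and 39.4 CPM, overlapping at the edge (log2 fold change 0.18 ± 0.09, edgeR adjusted p = 0.128), with 22.9% of its coding bases in the readthrough row RPL36A-HNRNPH2. HNRNPH3 had 283, 319 and 336 CPM and 345, 245 and 291 CPM, overlapping, with the highest TH588 value in culture A (log2 fold change -0.09 ± 0.12, edgeR adjusted p = 0.546). The sign of the HNRNPH3 value depended on TH588 culture B (0.02 without it).

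HNRNPK, which binds cytosine-rich RNA and DNA and is a cofactor of p53 in the DNA damage response, had 865, 909 and 922 CPM in DMSO and 666, 603 and 617 CPM with TH588 (log2 fold change -0.52 ± 0.08, edgeR adjusted p = 1.53e-04). HNRNPL, which binds CA repeats, went from 275, 271 and 266 CPM to 183, 188 and 183 CPM, 31.7% lower (log2 fold change -0.55 ± 0.07, edgeR adjusted p = 5.15e-05). Both had tight replicates and no overlap. HNRNPLL, a relative of HNRNPL that controls CD45 exons in lymphocytes, stood at 81.5, 85.7 and 84.6 CPM and 79.7, 73.0 and 69.2 CPM and did not pass (log2 fold change -0.18 ± 0.08, edgeR adjusted p = 0.0745), though all its TH588 values were the lower ones and it passed without TH588 culture A.

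HNRNPM, which binds GU-rich sites, had 722, 681 and 701 CPM in DMSO and 392, 435 and 456 CPM with TH588 (log2 fold change -0.71 ± 0.08, edgeR adjusted p = 1.84e-05). HNRNPR, a close relative of SYNCRIP, stood at 312, 292 and 316 CPM and 210.1, 194 and 184 CPM, 36.0% lower (log2 fold change -0.64 ± 0.08, edgeR adjusted p = 3.60e-05). HNRNPU (SAF-A), which anchors chromatin to nuclear RNA and binds the mitotic spindle, had 2241, 2086 and 2111 CPM in DMSO and 1197, 1339.7 and 1223 CPM with TH588. No TH588 culture of HNRNPM, HNRNPR or HNRNPU reached its DMSO range, and HNRNPU was 41.6% lower (log2 fold change -0.78 ± 0.08, edgeR adjusted p = 8.26e-06). HNRNPUL1 had 218, 214 and 208 CPM and 167, 207 and 207 CPM, its lowest value in TH588 culture A (log2 fold change -0.14 ± 0.09, edgeR adjusted p = 0.242). HNRNPUL2, which with HNRNPUL1 acts at broken DNA ends, had 6.99, 6.90 and 6.14 CPM and 5.49, 3.24 and 4.25 CPM (log2 fold change -0.66 ± 0.17, edgeR adjusted p = 0.00768). The level of HNRNPUL2 was low, and 96.5% of its coding bases lie in the readthrough row HNRNPUL2-BSCL2. This overlap covers 44.5% of its exon bases, all on the same strand, unlike that of SRSF2. The readthrough row stood at 0.0107 to 0.192 CPM and had too few counts to be tested. The part of the overlap in the low level of HNRNPUL2 was not tested.

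**Figure D3:**
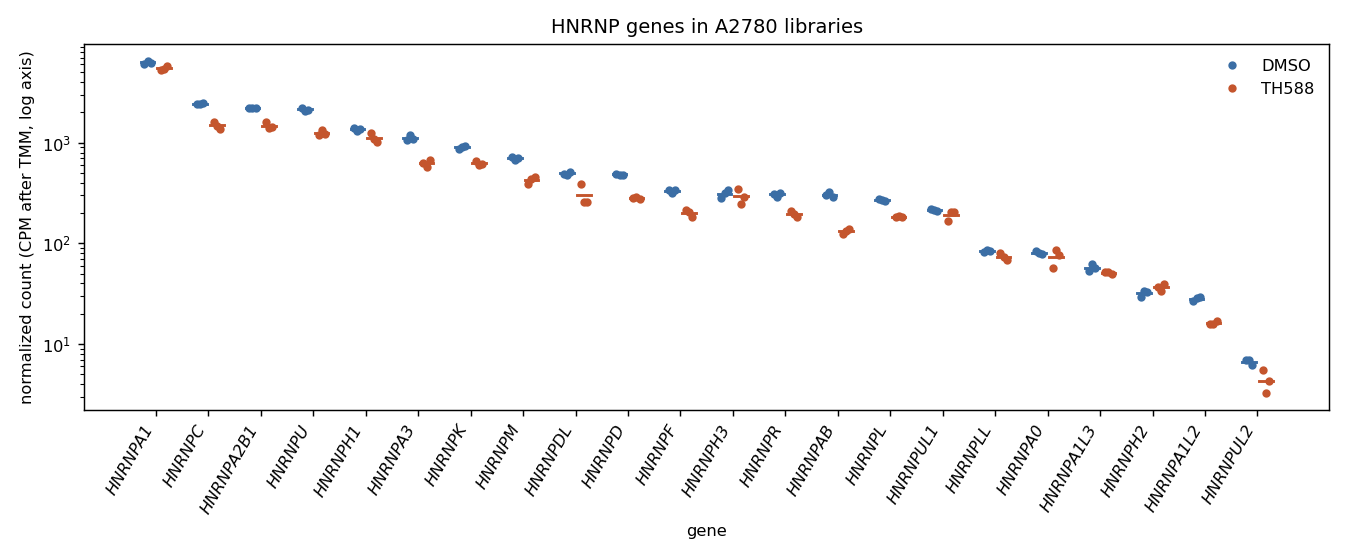
Normalized count (CPM after TMM, log axis) of the 22 tested HNRNP genes in each library, with 3 DMSO and 3 TH588 points and a bar at each group mean, ordered by mean count. In 19 of the 22 genes every TH588 point lies below every DMSO point, and the HNRNPA0, HNRNPH2 and HNRNPH3 points overlap.

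To ask whether relatives moved apart, the log2 ratio of the counts of 2 genes was taken within each library, which needs no scaling between libraries, for 21 pairs of related genes. With 3 cultures a group the smallest exact two-sided permutation p is 0.1, and over the 21 pairs the smallest Benjamini-Hochberg adjusted value was 0.14, so no pair could pass. The ratio was higher with TH588 without overlap in 7 pairs, lower in 8 and overlapping in 6. Taken singly, 28.7% of all genes tested were higher without overlap and 29% lower. The share among pairs of unrelated genes was not computed, so these counts do not show whether relatives moved apart more than other pairs. For HNRNPA1 over HNRNPA3 the log2 ratio was 2.50, 2.46 and 2.52 in DMSO and 3.05, 3.24 and 3.10 with TH588, a difference of 0.64 (exact permutation p = 0.1). For SRSF5 over SRSF6 it was 0.73, 0.82 and 0.78 and 1.35, 1.45 and 1.53, a difference of 0.67 (exact permutation p = 0.1). HNRNPA1 over HNRNPA2B1 (0.39), HNRNPH1 over HNRNPF (0.45), HNRNPD over HNRNPAB (0.43), HNRNPR over SYNCRIP (0.53) and PCBP1 over PCBP2 (0.70) were higher in the same way. Lower without overlap were SRSF2 over SRSF8 (-1.09), SRSF10 over SRSF12 (-0.97), HNRNPU over HNRNPUL1 (-0.63), HNRNPH1 over HNRNPH2 (-0.47), HNRNPL over HNRNPLL (-0.37), PTBP1 over PTBP2 (-1.03), PTBP1 over PTBP3 (-0.85) and SRPK1 over SRPK2 (-0.66). The ratios with SRSF2 and SRSF12 rest on low counts, 26 and 66 in TH588 culture A. Most coding bases of SRSF2 also lie in exons of other rows. The ratios of SRSF1 to SRSF9, SRSF4 to SRSF6, SRSF3 to SRSF7, HNRNPD to HNRNPDL, HNRNPUL1 to HNRNPUL2 and CLK1 to CLK4 overlapped between the groups.

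**Figure D4:**
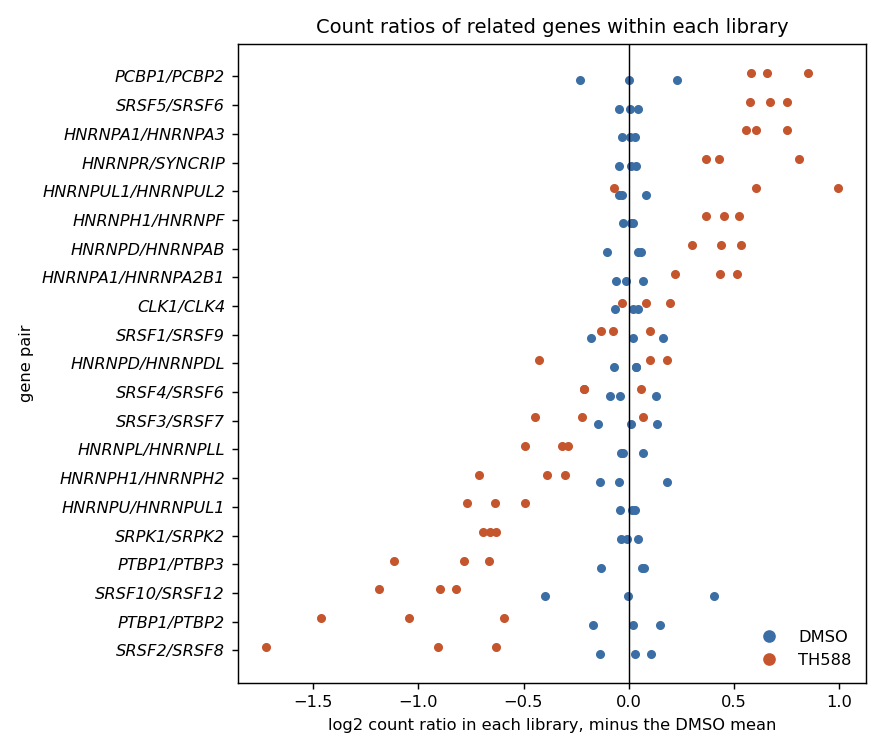
Log2 count ratio of 2 related genes within each library, minus the DMSO mean of that ratio (horizontal axis), for 21 pairs (vertical axis), with 3 DMSO and 3 TH588 points a pair. The TH588 points lie wholly right of the DMSO points in 7 pairs, from HNRNPA1/HNRNPA2B1 to PCBP1/PCBP2, and wholly left in 8, from HNRNPL/HNRNPLL to SRSF2/SRSF8.

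Among hnRNP proteins named by other symbols, 9 of 16 (56.25%) were lower and 2 (12.5%) higher, with a median log2 fold change of -0.36. Of all genes tested, 25.3% were lower and 24.2% higher, and of those averaging a log2 CPM of 2 or more, 36.5% were lower. SYNCRIP (hnRNP Q) had 497, 446 and 474 CPM in DMSO and 185, 232 and 211 CPM with TH588 (log2 fold change -1.17 ± 0.09, edgeR adjusted p = 1.10e-06). PTBP1 (hnRNP I), the repressor that binds polypyrimidine tracts, went from 403, 383 and 406 CPM to 202, 238 and 231 CPM (log2 fold change -0.83 ± 0.08, edgeR adjusted p = 7.24e-06), while its relatives PTBP2, at 0.21 (adjusted p = 0.225, edgeR), and PTBP3, at 0.02 (adjusted p = 0.838, edgeR), did not pass. TARDBP (TDP-43) fell (log2 fold change -0.58 ± 0.16, edgeR adjusted p = 0.00939). PCBP1 (hnRNP E1) rose, from 85.4, 72.9 and 87.0 CPM to 111, 101 and 98.0 CPM (log2 fold change 0.34 ± 0.09, edgeR adjusted p = 0.00806), while PCBP2 (hnRNP E2) fell (log2 fold change -0.35 ± 0.10, edgeR adjusted p = 0.0124). The calls of PCBP1 and TARDBP were lost without DMSO culture B, at log2 fold changes of 0.26 and -0.40, and that of PCBP2 without DMSO culture C, at -0.29, or with library-size scaling. PTBP2 passed as higher without TH588 culture B, at 0.37.

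The SR-related proteins outside the SRSF family gave 8 of 16 (50%) lower, none higher and a median of -0.24. Of all genes tested, 25.3% were lower, and of those averaging a log2 CPM of 2 or more, 36.5%. TRA2B, which activates exons with AGAA-like enhancers, stood at 254, 282 and 268 CPM in DMSO and 178, 149 and 152 CPM with TH588 (log2 fold change -0.75 ± 0.09, edgeR adjusted p = 2.55e-05). SRRM1, a splicing coactivator with 296 ± 9.60 and 197 ± 26.8 CPM (mean ± SD, n = 3), and U2SURP, a U2 snRNP-associated protein with 252 ± 5.51 and 169 ± 24.7 CPM, fell as well, by log2 fold changes of -0.59 (adjusted p = 3.62e-04, edgeR) and -0.57 (adjusted p = 5.67e-04, edgeR). Of the 10 kinases that phosphorylate SR proteins, 2 (20%) were higher and 1 (10%) lower, with a median of 0.05. Both shares were below the 24.2% and 25.3% of all genes tested. SRPK1, the main cytoplasmic SR kinase, had 192, 184 and 197 CPM and 128, 127 and 122 CPM (log2 fold change -0.60 ± 0.07, edgeR adjusted p = 3.25e-05), whereas SRPK2 had 72.0, 70.2 and 71.2 CPM and 74.1, 75.0 and 73.7 CPM (log2 fold change 0.06 ± 0.07, edgeR adjusted p = 0.502). DYRK1B, a kinase linked to cell quiescence, rose from 3.71, 3.36 and 3.82 CPM to 19.1, 21.3 and 19.1 CPM (log2 fold change 2.45 ± 0.12, edgeR adjusted p = 2.82e-08), and CLK3 rose slightly (log2 fold change 0.26 ± 0.08, edgeR adjusted p = 0.0129). CLK1 and CLK4 did not pass, at 0.04 (adjusted p = 0.827, edgeR) and -0.05 (adjusted p = 0.775, edgeR). Of the 3 import receptors for these proteins, TNPO3, which carries phosphorylated SR proteins into the nucleus, fell (log2 fold change -0.36 ± 0.08, edgeR adjusted p = 0.00185), as did TNPO1, which carries HNRNPA1 (log2 fold change -0.32 ± 0.09, edgeR adjusted p = 0.0082). The call of TNPO1 was lost with library-size scaling.

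Of the 34 core spliceosome proteins on which the regulators act, 27 (79.4%) were lower and none higher, with a median of -0.47. Of all genes tested, 25.3% were lower and 24.2% higher, and of those averaging a log2 CPM of 2 or more, 36.5% were lower. SNRPA1, a U2 snRNP protein, stood at 202, 186 and 195 CPM in DMSO and 103, 103 and 85.9 CPM with TH588 (log2 fold change -0.999 ± 0.09, edgeR adjusted p = 2.57e-06). The Sm ring proteins SNRPF (log2 fold change -0.94 ± 0.10, edgeR adjusted p = 8.30e-06) and SNRPD3 (log2 fold change -0.90 ± 0.08, edgeR adjusted p = 1.60e-06) followed. Nonsense-mediated decay and exon junction genes gave 8 of 15 (53.3%) lower and 1 (6.67%) higher, beside the same shares over all genes, with a median of -0.22. Within the exon junction complex, MAGOHB had 28.6, 31.3 and 27.6 CPM and 13.9, 10.3 and 10.7 CPM (log2 fold change -1.34 ± 0.12, edgeR adjusted p = 3.01e-06), MAGOH fell (log2 fold change -0.84 ± 0.19, edgeR adjusted p = 0.00322) and EIF4A3, the RNA helicase that anchors the complex, fell (log2 fold change -0.79 ± 0.09, edgeR adjusted p = 1.64e-05), whereas its partner CASC3 rose (log2 fold change 0.32 ± 0.08, edgeR adjusted p = 0.00692). This list had 9 calls in all, against 5 without TH588 culture C and 4 with library-size scaling.

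Of 24 listed sequence-specific splicing regulators of other families, 18 were tested, and 6 (33.3%) were higher and 6 (33.3%) lower, against 24.2% and 25.3% of all genes tested, with a median of -0.16. MBNL2, a muscleblind protein, rose from 2.02, 2.51 and 2.58 CPM to 13.8, 10.0 and 10.4 CPM (log2 fold change 2.25 ± 0.16, edgeR adjusted p = 4.56e-07), while MBNL1 fell (log2 fold change -0.34 ± 0.10, edgeR adjusted p = 0.0169), a call that was lost without DMSO culture C or TH588 culture B or C and with library-size scaling. NOVA2, best known in neurons, rose from 2.64, 2.17 and 2.43 CPM to 7.85, 8.57 and 7.55 CPM (log2 fold change 1.73 ± 0.14, edgeR adjusted p = 9.29e-07). RBFOX2, which binds GCAUG sites beside exons, rose from 127, 123 and 134 CPM to 254, 197 and 199 CPM (log2 fold change 0.76 ± 0.10, edgeR adjusted p = 6.63e-05). RBM17 and RBM10 fell, with log2 fold changes of -0.75 (adjusted p = 8.18e-06, edgeR) and -0.43 (adjusted p = 4.31e-04, edgeR).

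**Figure D5:**
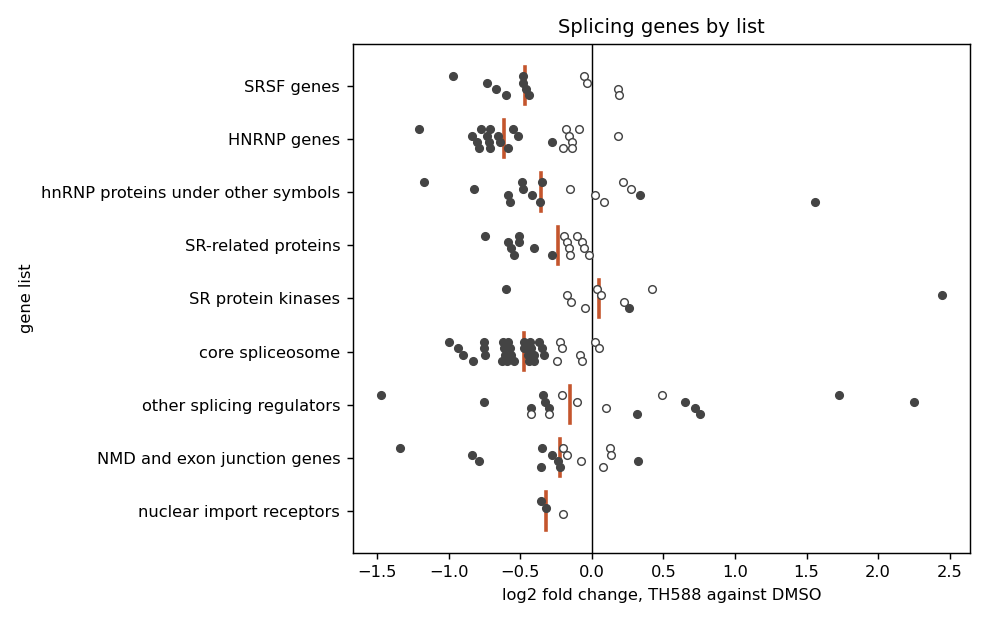
Log2 fold change of TH588 against DMSO (horizontal axis) for every tested gene of the SRSF and HNRNP families and of 7 lists of related splicing genes (vertical axis). Each point is a gene, filled where the adjusted p was under 0.05 by edgeR, and the bar is the list's median. The SRSF, HNRNP, SR-related, core spliceosome and import receptor rows have no filled point right of 0, while MBNL2, NOVA2 and DYRK1B lie farthest right.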

How the data were processed

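Polyadenylated RNA of 3 DMSO and 3 TH588 cultures was sequenced from TruSeq libraries. Reads were mapped by the authors with TopHat on GRCh38, assigned to genes by featureCounts 1.4.6 and deposited as raw counts, with exon coordinates and gene lengths. How strand, reads in shared exons and multi-mapped reads were treated is not given in the sources used here, and counts of overlapping genes and close copies are therefore uncertain. Symbols were assigned to 57754 of the 58336 rows through their Ensembl identifiers.

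Counts were tested with edgeR 4.0.16 in R 4.3.3 (filterByExpr, TMM, quasi-likelihood test, Benjamini-Hochberg adjustment over all 15844 genes tested, threshold 0.05). Each standard error was derived from the estimate and its F statistic (the estimate over the root of F). Related lists, paralog pairs, markers and motifs, like the members, were chosen with earlier results of these data known. All members are named. From other lists the text names up to 3 rises and 3 falls with the largest log2 fold changes among called genes with an average log2 CPM of 2 or more and no overlap, and both genes of each pair. EPCAM and KRT8, among the markers, were named after their values were seen. Ratios of relatives used an exact permutation test in scipy 1.17.1. Replicates differed by more than sampling noise (chi-square per degree of freedom 23.5 to 165 within groups). Promoter windows came from RefSeq on GRCh38.p14. Alternatives were other normalizations, DESeq2 1.42.0, limma-voom (limma 3.58.1), other filters, a threshold of 0.01, a replicate block and leaving out each library.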

Additional observations from a re-analysis of the deposited data

How the results depend on the processing

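Of the comparisons of a result with an alternative, 960 kept their direction and side of the threshold, 23 lost and 7 gained a call, and 14 turned sign. The number of SRSF genes that fell was 8 under every alternative run, and that of HNRNP genes 14 to 16. Under these alternatives the share of all genes tested that were lower ranged from 15.5% (no filter) to 27.9% (at least 10 counts in every library). The number of SRSF genes that rose was 0, but 1 (SRSF5) with library-size scaling or where at least 10 counts in every library were required, and 0 to 1 with a library left out. Calls among nonsense-mediated decay and exon junction genes numbered 9, but 4 with library-size scaling, 5 at an adjusted p under 0.01 and 5 to 10 with a library left out. Import receptors gave 2 calls, but 1 with library-size scaling and 3 without TH588 culture A. Core spliceosome genes gave 27 calls, but 21 with library-size scaling and 24 to 28 with a library left out. The splicing regulators of other families gave 12, but 9 with library-size scaling and 8 to 11 with a library left out.

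Only genes that did not pass the test turned sign. With library-size scaling the log2 fold change was 0.0 for HNRNPH3, 0.053 for SRSF11, 0.077 for SRSF8 and 0.043 for CLK4, and with limma-voom it was -0.015 for CLK1. With a library left out the ranges were -0.275 to 0.018 for HNRNPA0, -0.212 to 0.023 for HNRNPH3, -0.112 to 0.043 for SRSF11, -0.061 to 0.022 for SRSF8, -0.114 to 0.14 for CLK1, -0.197 to 0.069 for CLK4 and -0.024 to 0.071 for PTBP3. The cause was not tested.

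Cultures with the same letter did not deviate together (correlations -0.071, -0.083 and 0.001, and 0 of 6 libraries correlated best with their own letter). With the letter as a replicate block 7195 genes were called, 7129 of them also without it, against 7852 in all without it, and 23 members were called with the block and without it. Over all genes, calls numbered 6805 to 7914 with a library left out and 5831 at an adjusted p under 0.01. The TH588 culture A, with 28537837 counts, limits low genes such as SRSF2, SRSF12 and HNRNPUL2 most.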

Other observations

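Processed pseudogene copies of the members were counted as rows of their own. Of 134 rows named as numbered pseudogenes of an SRSF or HNRNP gene, 86 had counts, 35 were tested, 3 were higher and 2 lower with TH588 at an adjusted p under 0.05 by edgeR, where 24.2% of all genes tested were higher and 25.3% lower. HNRNPA1 alone had 74 such rows, 50 of them with counts, and together they held 0.730 to 0.889% of the counts of HNRNPA1 in each library. The 16 rows of HNRNPA3 held 0.635 to 0.713% of its counts in DMSO and 0.911 to 1.29% with TH588, so the copies took a larger share in all 3 TH588 cultures, while their summed level was 7.59 CPM in DMSO and 6.70 CPM with TH588 on average.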
